A study of Rattus norvegicus with 2 samples.

Results

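The endothelial and pericyte genes described here are 10 genes of the blood vessel wall, chosen by name: 4 barrier genes (Cldn5, Slc2a1, Bsg and Abcb1a), 4 endothelial genes (Pecam1, Vwf, Flt1 and Kdr) and 2 mural genes (Pdgfrb and Rgs5). All 10 had a named probe, 13 probes in all, among 16581 named genes on the array. The tissue was the nucleus of the solitary tract, or NTS, a cardiovascular and visceral relay of the dorsal medulla, of female and of male spontaneously hypertensive rats (SHR), a strain that becomes hypertensive. Both groups shared strain, an age of 9 weeks and tissue, received no treatment named in the labels, and differ in the labels by sex alone. For each sex, 100 ng of RNA from each of 5 rats was pooled and hybridised to 1 one-colour Agilent array. With 1 array per sex, no variation between animals is available, every difference compares 2 pools, and none could be tested.

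Brain capillaries are lined by endothelial cells that are sealed to each other by tight junctions and that carry nutrients and export drugs through dedicated transporters. This is the blood-brain barrier. Pericytes and smooth muscle cells, together called mural cells, wrap the endothelial tube, and endothelial PDGF-B holds pericytes there through the receptor encoded by Pdgfrb. Endothelial growth and survival depend on VEGF, sensed mainly by the receptor encoded by Kdr, while the receptor encoded by Flt1 binds VEGF tightly and signals weakly. The NTS lies beside the area postrema and the fourth ventricle, where vessels without a tight barrier and the choroid plexus are found.

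Signals are given on a scale on which the 75th percentile of each array's probes is 100 (scaled signal), and differences as female minus male on the log2 scale. All 13 member probes were well above background on both arrays, with a scanned signal from 1.89 to 191 times the local background. All 8 endothelial and all 7 mural defining markers were measured on both arrays, as were 9 of 11 NTS markers. In dissected tissue, fewer cells of a type and less RNA per cell cannot be told apart.

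Of the spots outside the controls, 82.3% were well above background in the female pool and 80.1% in the male pool. The Y-linked gene Eif2s3y did not stand well above background in the female pool and reached 22.4 in the male pool, at least 65.0-fold lower in females. Of the probes of Y-linked Ddx3y, A_43_P19826 was not above background in females and gave 6.94 in males, at least 20.2-fold lower in females, and A_44_P671422 gave 10.2 in the female and 24.3 in the male pool. Of all 13428 genes measured on both arrays, 7452 were higher and 5976 lower on the female array. Choroid plexus markers were higher on the female array in 11 of 11 measured genes, with a median difference of 2.53. Their summed signals were 9813 in the female and 786 in the male pool, of which Ttr alone gave 9325 and 617. Red cell markers were lower on the female array in 5 of 5 measured genes, with a median of -0.75. Their sums were 3467 in the female and 5396 in the male pool, of which Hba-a1 alone gave 3310 and 5130. Of 10 meningeal and fibroblast markers, 8 were higher in females, with a median of 0.13. Their sum was 514 in the female and 689 in the male pool. Without the collagen gene Col1a2, itself lower on the female array, it was 237 in the female and 220 in the male pool. Col1a2 was left out after its value was seen. The part of these tissues in the vascular differences below was not tested.

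The 10 vascular genes differed by 1.27-fold or less between the pools. None reached 1.5-fold, a difference that 2.29% of the 13428 genes measured on both arrays reached, so that count does not set these genes apart. The largest differences were in Kdr, Cldn5 and Vwf, which were 1.27-fold, 1.204-fold and 1.17-fold lower on the female array. Slc2a1, Bsg, Abcb1a, Pecam1, Pdgfrb and Rgs5 were within 1.06-fold. Over all 10 genes, 7 were lower on the female array, where 44.5% of all measured genes were lower, and the median was -0.07 against 0.02 for all measured genes. The 44.5% depends on the scaling. It was 49.8% after quantile normalization, 55.2% after median scaling and 17.1% after centring on spike-in controls. In these settings 7, 8 and 4 members were lower. At a limit of 1.2-fold, 2 members (Kdr and Cldn5) were lower on the female array and 0 were higher, against 4.48% and 7.31% of all measured genes.

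**Figure D1:**
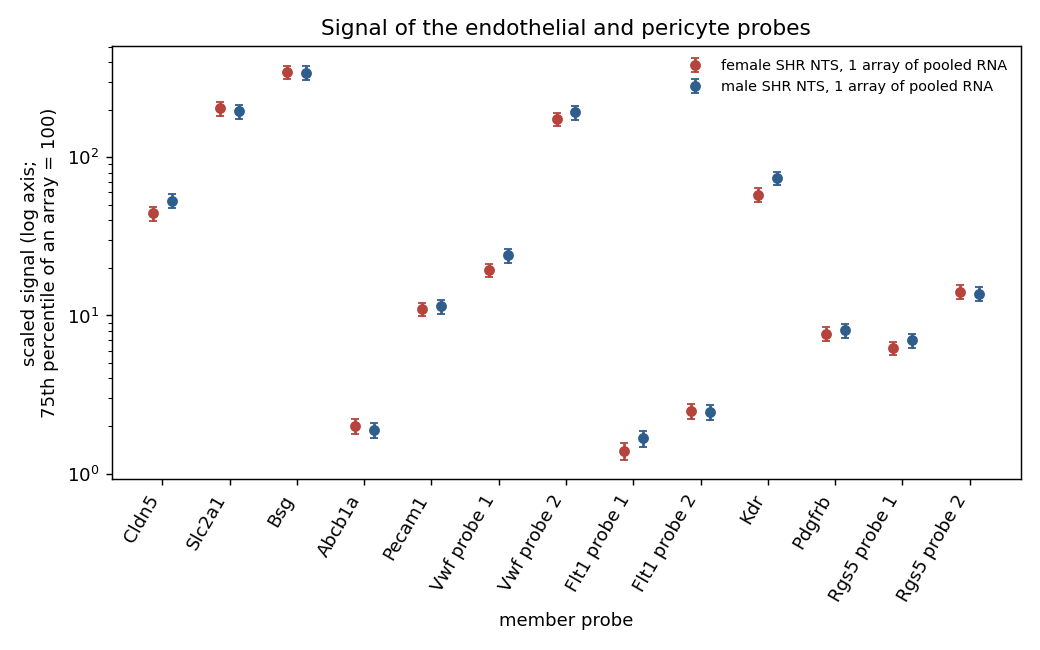
Scaled signal of each of the 13 member probes (log axis, 75th percentile of an array = 100) on the female array (red) and the male array (blue), with the scanner program's error estimate of 10 to 11.8% as bars. The arrays lie side by side for most probes, and the female point is lower for Kdr, at 58.0 against 73.7, and for Cldn5, at 44.2 against 53.2. Levels of different probes depend on the probe and are not comparable.

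Cldn5 (NM_031701) encodes claudin-5, the main sealing protein of brain endothelial tight junctions. Its probe gave a scaled signal of 44.2 in the female and 53.2 in the male pool. The female array was thus the lower one, by -0.27 on the log2 scale. The scanner program's error estimate for each signal, carried to the difference, was 0.20, so the difference was 1.31 times its error. The estimate was 10 to 11.8% of the signal over all 13 member probes, so it acts as a nearly fixed share of the signal. It does not measure animals, pooling, labelling or the array. Scatter between repeated spots was smaller, with a median SD of the difference of 0.04 over 1323 other probes with at least 8 spots.

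The transporter genes of the barrier had no such difference. Slc2a1 (NM_138827), the gene of the endothelial glucose transporter, gave 204 in the female and 195 in the male pool, a difference of 0.06 ± 0.20 (scanner error). Bsg (NM_001109882), which encodes basigin, a partner of lactate transporters that is dense on brain endothelium, gave 345 in the female and 341 in the male pool, a difference of 0.02 ± 0.20. Abcb1a (NM_133401), which encodes the drug exporter P-glycoprotein, was dim, at 2.00 in the female and 1.89 in the male pool, a difference of 0.08 ± 0.22. In each of these genes the female array was the brighter one by less than its error. Basigin is also made by choroid plexus epithelium and neurons.

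Among the endothelial genes, Kdr (NM_013062) stood lowest. Its probe gave 58.0 in the female and 73.7 in the male pool, a difference of -0.35 ± 0.20. That is 1.70 times its scanner error, and 2.77 times the SD of 0.13 found over genes in the brightest 25% of the signal range, to which Kdr belongs. Of all measured genes, 2.62% had a difference as low or lower.

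Vwf (NM_053889), the gene of von Willebrand factor, which endothelium stores and releases to capture platelets, had 2 probes, both lower on the female array. Probe A_43_P21694 gave 174 in the female and 192 in the male pool (-0.14). Probe A_64_P114913 gave 19.3 in the female and 24.0 in the male pool (-0.31). Their mean was -0.23 ± 0.14, or 1.81 times the SD over genes of similar brightness. The probes shared a direction, and the gap of 0.17 between them was smaller than its scanner error of 0.29.

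Flt1 (NM_019306) was dim, and its 2 probes had opposite signs, with a gap of 0.29 that was within its scanner error of 0.32. Probe A_43_P12015 gave 1.39 in the female and 1.67 in the male pool (-0.26), and probe A_64_P201730 gave 2.49 in the female and 2.45 in the male pool (0.02). The mean, -0.12, lay inside the SD of 0.36 over the dimmest 25% of genes. Flt1 is transcribed into a membrane and a soluble form, and the files used here do not place the probes on either. Pecam1 (NM_031591), an adhesion molecule at endothelial contacts, gave 10.96 in the female and 11.4 in the male pool, a difference of -0.06 ± 0.20.

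The mural genes were nearly level. Pdgfrb (NM_031525), which encodes the pericyte receptor for PDGF-B, gave 7.68 in the female and 8.06 in the male pool, a difference of -0.07 ± 0.20. Rgs5 (NM_019341), a brake on G protein signalling that is abundant in pericytes, had 2 probes of opposite sign. Probe A_44_P1082783 gave 6.21 in the female and 6.96 in the male pool (-0.16), and probe A_43_P12029 gave 14.1 in the female and 13.7 in the male pool (0.04). The mean for Rgs5 was -0.06 ± 0.15, and the gap between its probes, 0.20, was within its scanner error of 0.29.

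Set by role, the barrier genes had a median difference of 0.04 (-0.27 to 0.08), the endothelial genes -0.17 (-0.35 to -0.06) and the mural genes -0.07 (both genes between -0.07 and -0.06). The barrier median exceeded the mural median by 0.11, less than the scanner error of a single probe's difference. Over the other settings that gap ran from -0.02 among brighter probes to 0.14 after quantile normalization. Within the barrier set, 3 of 4 genes were higher on the female array and Cldn5 was lower. All 4 endothelial genes and both mural genes were lower on the female array, although centring on spike-in controls, which adds 0.097 to every gene, turned Pecam1, Pdgfrb and Rgs5 to the female side. In order from the lowest, the differences ran Kdr, Cldn5, Vwf, Flt1, Pdgfrb, Rgs5, Pecam1, Bsg, Slc2a1 and Abcb1a, and neighbours in this order differed by less than their scanner errors.

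**Figure D2:**
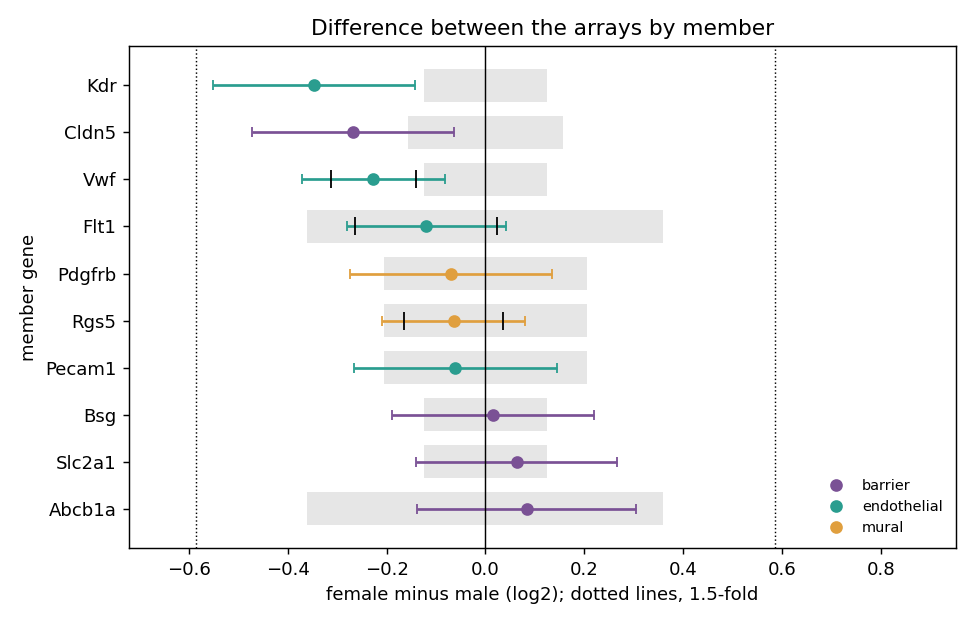
Female minus male difference (log2) of each member gene, from the lowest at the top, coloured by role, with the scanner error carried to the difference as bars. Black ticks mark the separate probes of Vwf, Flt1 and Rgs5, and grey boxes span 1 SD either side of 0 over all genes in the same 25% of the signal range. Kdr (-0.35), Cldn5 (-0.27) and Vwf (-0.23) lie outside their boxes, the other 7 genes lie inside theirs, and none reaches the dotted lines at 1.5-fold.

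Promoter sequence from RefSeq (GRCr8) was found for 7 of the 10 genes. The 250 bases before the gene start are shown for the 2 genes with the largest differences, Kdr and Cldn5, for the bright barrier gene Slc2a1, which lacked such a difference, and for the mural gene Rgs5. Capitals mark the GC box, GGGCGG on either strand, a site read by Sp-family factors. The 7 promoters all held it, against 51.9% of promoters of measured genes and 30.5% of all 33469 RefSeq promoters of this length. Being in all 7, the box cannot tell any of these genes from another.
Kdr promoter, GRCr8 chr14:32571813-32572062, plus strand, 5′ to 3′: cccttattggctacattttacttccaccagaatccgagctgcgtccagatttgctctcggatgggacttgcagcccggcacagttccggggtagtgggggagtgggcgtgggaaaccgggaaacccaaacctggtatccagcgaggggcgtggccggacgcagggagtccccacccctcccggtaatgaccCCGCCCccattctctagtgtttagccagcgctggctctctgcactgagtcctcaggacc
Cldn5 promoter, GRCr8 chr11:95718599-95718848, minus strand, 5′ to 3′: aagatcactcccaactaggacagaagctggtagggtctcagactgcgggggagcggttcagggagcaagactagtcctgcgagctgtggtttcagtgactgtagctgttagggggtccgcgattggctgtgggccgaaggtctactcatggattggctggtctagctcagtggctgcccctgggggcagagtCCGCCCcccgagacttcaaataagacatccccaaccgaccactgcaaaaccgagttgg
Slc2a1 promoter, GRCr8 chr5:138002272-138002521, plus strand, 5′ to 3′: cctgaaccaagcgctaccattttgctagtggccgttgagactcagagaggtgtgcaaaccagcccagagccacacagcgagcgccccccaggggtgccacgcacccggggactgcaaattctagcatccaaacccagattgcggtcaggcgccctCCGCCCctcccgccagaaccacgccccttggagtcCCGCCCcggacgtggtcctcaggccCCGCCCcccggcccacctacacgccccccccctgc
Rgs5 promoter, GRCr8 chr13:84380827-84381076, plus strand, 5′ to 3′: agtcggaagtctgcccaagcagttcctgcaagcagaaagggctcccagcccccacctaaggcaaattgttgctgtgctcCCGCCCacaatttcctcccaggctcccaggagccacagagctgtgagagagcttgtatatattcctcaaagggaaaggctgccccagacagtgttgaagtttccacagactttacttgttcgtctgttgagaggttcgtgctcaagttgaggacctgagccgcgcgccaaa
The ETS core GGAA, a site of the ETS factors that act widely in endothelial genes, occurred in 5 of the 7 promoters on either strand, and in 92.9% of promoters of measured genes. It was found 4 times in the Kdr window, 6 times in the Rgs5 window and not in the windows of Cldn5 and Slc2a1. The SOX core ACAAT was found in 1 window, that of Rgs5, against 20.0% of promoters of measured genes. The TATA box TATAAA was found in the Flt1 window alone among the 7, against 8.55%. The extended ETS site CCGGAA, which contains the ETS core, was found in the Kdr window alone among the 7, against 20.4%. These matches describe letters and are not evidence of binding.

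Beyond the 10 members, 6 further lists of vascular genes held 124 measured genes. Of these, 2 were at least 1.5-fold higher and 2 at least 1.5-fold lower on the female array, against 1.5% and 0.797% of all measured genes. The median over the 124 genes was -0.04, with 76 lower on the female array, or 61.3%, against 44.5% of all measured genes. Spike-in centring, which put the median of all measured genes at 0.11, put that of the 124 genes at 0.05.

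In the endothelial identity list, 18 of 24 measured genes were lower on the female array and the median was -0.10, or -0.0067 after spike-in centring. Procr, the endothelial receptor of protein C and an anticoagulant gene, was the 1 gene past 1.5-fold. It was dim, at 1.13 in the female and 2.09 in the male pool, 1.85-fold lower in females, and within 1.5-fold with either other background treatment. Normexp, which adds 50 to each signal, and no correction, which leaves the background in, both narrow the ratios of dim probes. Cdh5, the endothelial cadherin, gave 5.46 in the female and 6.30 in the male pool (-0.21). Eng, a TGF-beta co-receptor, gave 3.62 in the female and 5.01 in the male pool (-0.47), and the adhesion gene Icam2 gave 3.97 in the female and 5.01 in the male pool (-0.34). Thbd, the gene of thrombomodulin, which works with Procr in activating protein C, went the other way, at 5.90 in the female and 4.50 in the male pool (0.39). Tek, the angiopoietin receptor, was nearly level, at 25.4 in the female and 26.0 in the male pool. Cdh5, Eng, Icam2, Thbd and Tek were chosen after their values were seen. With Tie1 (-0.18), all 8 defining endothelial markers, 5 of them members, were lower in females, against 44.5% of all measured genes. These 8 were picked by name, and the brighter probe of Flt1 was at 0.02. In the whole list 6 genes were higher, Thbd, Klf2 (0.17), Emcn (0.09), Sox18 (0.09), Icam1 (0.04) and Ets1 (0.02). The spike-in step of 0.097 exceeds the differences of Tek and Pecam1, and it left 17.1% of all measured genes lower. Of the 7 defining mural markers, 5 were lower, though the same step of 0.097 exceeds the differences of Pdgfrb, Rgs5 and Acta2. The other mural markers, Myh11 (0.25) and Cspg4 (0.17), were higher, with Cspg4 at 67.2 in the female and 59.6 in the male pool.

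The further barrier genes, junction proteins and transporters, had a median of 0.00 (0.09 after spike-in centring). Of 26 measured genes, 14 were lower on the female array, or 53.8% against 44.5% of all measured genes. Slc22a8, an organic anion transporter made by barrier endothelium and by choroid plexus epithelium, gave 26.6 in the female and 16.9 in the male pool, 1.58-fold higher in females. Marveld2, which encodes a protein of tricellular junctions, was dim, at 0.75 in the female and 0.49 in the male pool, 1.54-fold higher in females. Both came under 1.5-fold with normexp, whose offset narrows the ratios of dim probes, at 0.55 for Slc22a8 and 0.11 for Marveld2. The next genes were chosen after their values were seen. The junction gene Ocln was higher on the female array in all 3 of its probes, with a mean of 0.50 (0.18 to 0.81), at 9.55 in the female and 6.76 in the male pool. The amino acid transporter gene Slc38a5 gave 17.5 in the female and 25.3 in the male pool (-0.53), and the lipid transporter gene Mfsd2a 17.9 in the female and 21.4 in the male pool (-0.25). Plvap, which marks vessels with fenestrae and is scarce in barrier vessels, was nearly level, at 53.8 in the female and 51.7 in the male pool (0.06). Occludin is made by epithelia as well. Ocln, Slc22a8 and Marveld2 were higher in females, as was the dim Foxq1 (0.54). The choroid plexus sum was also higher in females, at 9813 in the female and 786 in the male pool. Within that sum, Ttr alone gave 9325 in the female and 617 in the male pool. The part of choroid plexus tissue in the differences of these 4 genes was not tested. With 1 pool per sex, such a part could not be separated from sex.

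Of the pericyte and smooth muscle list, 19 of 27 measured genes were lower on the female array, with a median of -0.06 (0.03 after spike-in centring) and none past 1.5-fold, where 44.5% of all measured genes were lower. The brightest were Cox4i2, a respiratory chain subunit abundant in pericytes, at 233 in the female and 242 in the male pool (-0.05), and the adhesion gene Mcam, at 101 in the female and 115 in the male pool (-0.19). Of the genes that follow, chosen after their values were seen, Kcnj8 and Abcc9 encode the channel and sulphonylurea receptor of the pericyte potassium channel. Kcnj8 gave 10.7 in the female and 12.5 in the male pool (-0.24), and Abcc9 gave 4.03 in the female and 4.37 in the male pool (-0.12). The smooth muscle myosin gene Myh11 was higher on the female array, at 10.8 against 9.07 (0.25), while smooth muscle actin, Acta2, gave 14.2 in the female and 14.8 in the male pool (-0.06). Of the other smooth muscle genes, Mylk (-0.29), Tagln (-0.17) and Myl9 (-0.10) were lower in females like Acta2, and the dim Lmod1 was at 0.12.

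The ligands and receptors of VEGF, angiopoietin, Notch and PDGF signalling had a median of -0.02 and no gene past 1.5-fold. Of 24 measured genes, 13 were lower on the female array, or 54.2% against 44.5% of all measured genes. The sign of that median was not stable, at 0.02 with normexp, 0.04 without background correction, 0.03 with the brightest probe of each gene and 0.07 after spike-in centring. Pdgfa was at 297 in the female and 301 in the male pool (-0.02), and the peptide gene Apln at 73.8 in the female and 78.8 in the male pool (-0.10). Vegfa, the ligand of Kdr and Flt1, gave 38.8 in the female and 35.9 in the male pool (0.11), with its 3 probes between 0.07 and 0.15. Pdgfb, the endothelial ligand of Pdgfrb, was dim, at 0.60 in the female and 0.47 in the male pool (0.34). Esm1, a secreted proteoglycan gene of growing endothelium, gave 7.35 in the female and 10.6 in the male pool (-0.53). Vegfa, Pdgfb and Esm1 were chosen after their values were seen.

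Wnt signals from neural cells induce and maintain barrier properties in brain endothelium. Of 14 measured genes on that list, 8 were lower on the female array, or 57.1% against 44.5% of all measured genes. The median was -0.07 (0.03 after spike-in centring). Lef1, a transcription factor of the pathway, was 1.52-fold lower in females, at 1.84 in the female and 2.80 in the male pool, and -0.38 with normexp, which is within 1.5-fold. Apcdd1, a Wnt target that restrains the pathway, gave 46.4 in the female and 58.5 in the male pool (-0.34), and the ligand gene Wnt7b 1.62 in the female and 2.07 in the male pool (-0.36). The receptor gene Fzd4 (0.12) and the co-receptor genes Lrp5 (0.06) and Lrp6 (0.11) were on the female side. Apart from Lef1, the genes of this list were chosen after their values were seen.

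**Figure D3:**
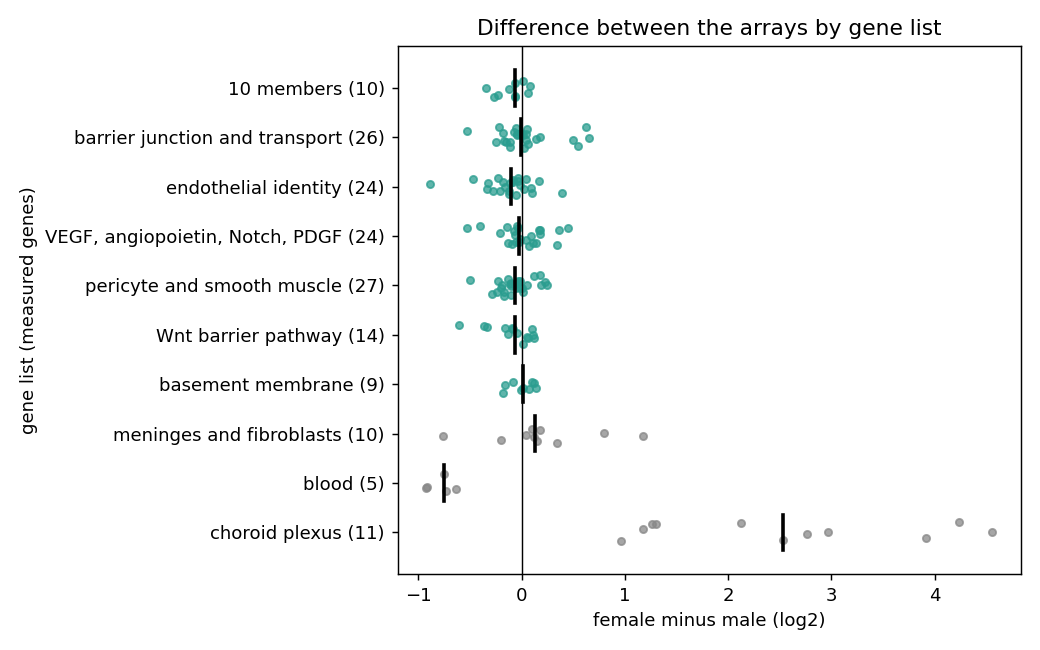
Female minus male difference (log2) of each measured gene (points) and the median (black line) for the 10 members, the 6 further vascular lists (green) and 3 lists of other tissues (grey), with the number of measured genes in parentheses. The vascular medians lie between -0.10 and 0.01, the blood median at -0.75 and the choroid plexus median at 2.53.

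The basement membrane, which endothelium and mural cells share, had a median of 0.01 (0.10 after spike-in centring, -0.01 with normexp). The list had 4 of 9 measured genes (44.4%) lower on the female array, against 44.5% of all measured genes. Its brightest genes, Sparcl1 and Sparc, secreted matrix glycoproteins, were at 2854 in the female and 2671 in the male pool (0.10) and at 2004 in the female and 1825 in the male pool (0.13).

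The direction of 5 members, Kdr, Cldn5, Vwf, Slc2a1 and Abcb1a, was the same in each of the other processing settings in which the gene had a value. Kdr ranged from -0.38 to -0.25, Cldn5 from -0.30 to -0.17 and Vwf from -0.26 to -0.13. Kdr, Cldn5, Slc2a1 and Abcb1a have 1 probe each, so the filters, gene summaries and outlier flags returned the same value or none. The authors' table holds the same signal divided by a constant. All settings reuse the same 2 arrays, so their agreement does not measure variation between arrays or animals. Bsg changed sign after median scaling (-0.02), Flt1 when the brightest probe stood for the gene (0.02), and Pecam1 and Pdgfrb after spike-in centring. Rgs5 changed sign in 5 of 12 settings. No member passed 1.5-fold in any of them.

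**Figure D4:**
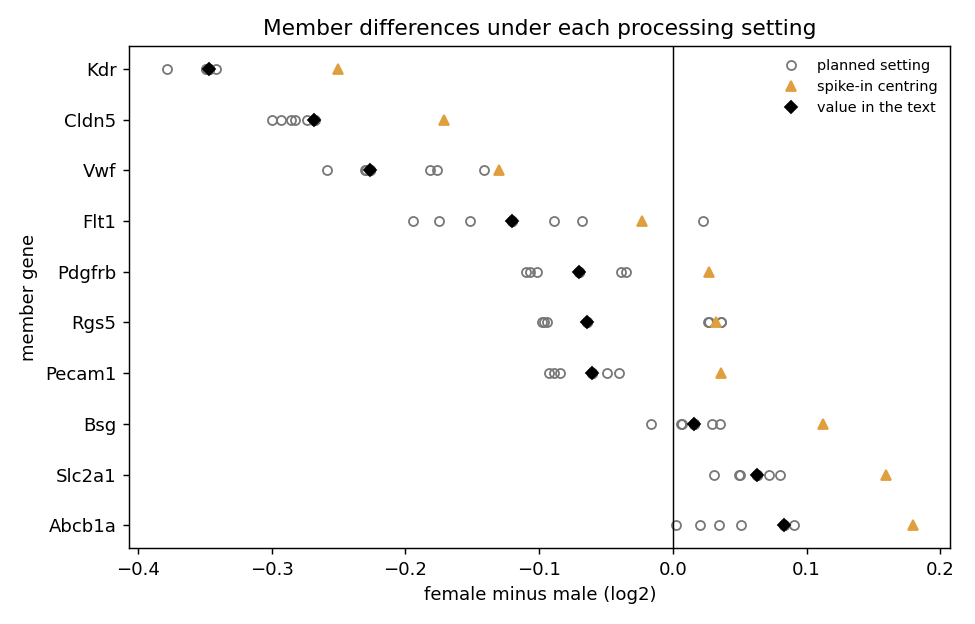
Female minus male difference (log2) of each member under the processing used in the text (diamonds), 11 alternatives (circles) and centring on spike-in controls (triangles). Filters, gene summaries and outlier flags could not change the value of a gene with 1 probe, so circles coincide there. The points of Kdr (-0.38 to -0.25), Cldn5 and Vwf stay left of 0, those of Slc2a1 and Abcb1a stay right of it, and those of Rgs5 lie on both sides.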

How the data were processed

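The female and the male pool of NTS RNA were each measured on 1 array. The deposited scanner files hold linear spot intensities. Per the file headers they were written by Agilent Feature Extraction 11.5.1.1, and per the submitters' processing notes by version 9.1. The processed signal is background-corrected by that program. The authors' deposited value table holds the same intensity divided by 1 constant per array (23.4 female, 22.8 male), is linear and uncentred, and has column medians of 19.6 (female) and 19.4 (male).

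Control spots and spots with an outlier flag on either array were left out. The log2 processed signal minus the array's 75th percentile was averaged over spots, then over the probes of a gene that were well above background on both arrays. No spot was saturated. Probes were named by matching transcript accessions, without versions, to RefSeq genes of assembly GRCr8, which named 21109 of 45595 probes. No member probe had repeated spots, so its error is the scanner program's estimate. Over 1323 other probes with at least 8 spots, the median SD of the difference was 0.04. The number of arrays limits the precision.

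The members and lists were chosen with earlier results of these data known. Named are all members and, from each other list, up to 4 genes past 1.5-fold or else the 2 brightest; exceptions are marked. Each list of other cell types served as a check. Beside those reported with the arrays, 5 of 9 astrocyte, 8 of 8 microglial and 3 of 9 NTS genes were lower on the female array. Of all measured genes, 44.5% were lower there. Alternatives covered background correction (normexp with an offset of 50, or none), scaling, filters, gene summaries, outlier flags, fold limits and the authors' table. The pipeline was tested on simulated data. Python 3.11.15, numpy 2.4.6, pandas 2.3.3, R 4.3.3 and limma 3.58.1 were used.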

Additional observations from a re-analysis of the deposited data

How the results depend on the processing

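The 10-member median of -0.07 was -0.0226 with the brightest probe of each gene and 0.0295 after spike-in centring. That centring was chosen after seeing the data and also gave 0.136 for the barrier, 0.0295 for the mural and 0.0546 for the further vascular median. With normexp background correction the mural median was -0.0059 and the barrier-minus-mural gap 0.0195. Without background correction these were -0.0043 and 0.0325, with the brightest probes -0.0169 and 0.0561, and among brighter probes 0.036, from Rgs5 alone, and -0.0205. The cause was not tested. Of all measured genes, 201 were at least 1.5-fold higher and 107 lower on the female array. These counts were 37 and 33 with normexp and 50 and 38 without background correction, both of which narrow the ratios of dim probes. They were 1134 and 513 without a filter on dim probes, which added genes near background. Among brighter probes, where fewer genes were tested, they were 20 and 27. After quantile normalization they were 137 and 157, and after spike-in centring 300 and 78. At 1.2-fold they were 981 and 602, with 2 members past the limit, and at 2-fold 54 and 20. No paired analysis was possible because the design has 1 array for each sex. Spot by spot differences of member probes were not run, since each has 1 spot. Abcb1a and Flt1 lie near background, at 1.89 to 2.47 times it.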

Other observations

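Markers of cells that touch the vessel wall did not reach 1.5-fold. Astrocyte markers (astrocyte end-feet cover brain capillaries) had a median of -0.03 over 9 genes, with the metabolic enzyme gene Aldoc at 6964 in the female and 7120 in the male pool and the calcium-binding protein gene S100b at 2276 in the female and 2207 in the male pool. Aqp4, the water channel of the end-feet, chosen after its values were seen, gave 1423 in the female and 1538 in the male pool (-0.11). All 8 microglial markers were lower on the female array, by small amounts with a median of -0.06, against 44.5% of all measured genes. The spike-in step of 0.097 exceeds the differences of P2ry12, Trem2, Csf1r, C1qa, Tmem119 and Itgam. Among the microglial markers, the chemokine receptor gene Cx3cr1 gave 156 in the female and 176 in the male pool. The complement gene C1qa gave 164 in the female and 167 in the male pool.

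Of 9 measured NTS markers, 6 were higher on the female array, as were 7452 of all 13428 measured genes. The median of the 9 markers was 0.12. The brightest of them, Th, for catecholamine synthesis, and Tac1, a tachykinin precursor, were lower there and gave 532 and 496 on the female array, against 602 and 544 on the male array. Of the choroid plexus list, the female pool exceeded the male pool 23.5-fold for Kcnj13, 18.8-fold for Sostdc1, 15.1-fold for Ttr and 7.79-fold for Prlr. Of the blood list, Slc4a1, Ahsp, Hbb and Alas2 were 1.90-fold, 1.89-fold, 1.68-fold and 1.66-fold lower there. Of the meningeal list, Slc47a1 and Igf2 were 2.25-fold and 1.74-fold higher and Col1a2 was 1.70-fold lower on the female array. Cnn1 and Slc19a3 were well above background on the female array alone, with bounds of at least 1.17-fold and 1.01-fold.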
